A study of Homo sapiens with 13 samples.

Results

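The clustered protocadherins are cadherin-family proteins of the cell surface, encoded by 3 neighbouring gene clusters on chromosome 5. All protein-coding genes whose symbol starts with PCDHA, PCDHB or PCDHG followed by a subtype were taken, in all 5 groups. This gave 53 of the 62703 genes in the deposited tables, 15 in the alpha, 16 in the beta and 22 in the gamma cluster, between positions 140786136 and 141512977 (GRCh38). Their levels were read from 13 poly-A RNA sequencing libraries made from SKOV3 and OVCAR3, 2 established lines of human ovarian cancer. SKOV3 cells carried a control vector, overexpressed RSF1, or overexpressed RSF1delUAB, with 3 libraries each. RSF1 is a histone chaperone of the RSF chromatin remodelling complex, its UAB region binds ubiquitinated histone H2A, and RSF1delUAB lacks that region. OVCAR3 cells carried a scramble control or expressed a UAB peptide, with 2 libraries each, and all 4 were taken after 6 days with 2000 ng/mL doxycycline. The labels name neither the promoters of the constructs nor any clone, and they leave unsaid whether replicates came from separate cultures. All p-values therefore speak of the spread among these libraries, part of which can be technical.

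In the alpha and gamma clusters each gene has its own promoter and its own large first exon, which is spliced to constant exons shared by the whole cluster. Beta genes are single exons without constant exons. In neurons each cell switches on a few promoters largely at random, in a process that involves CTCF, cohesin and DNA methylation, and the resulting proteins let a cell tell its own branches from those of its neighbours. The C-type genes at the ends of the alpha and gamma clusters (PCDHAC1, PCDHAC2, PCDHGC3, PCDHGC4 and PCDHGC5) are known to be controlled differently, being switched on together rather than at random. In several carcinomas the clusters are known for long-range promoter methylation.

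The promoters of most members carry a conserved element that contains the letters CGCT. RefSeq promoter windows (GRCh38.p14) were matched for 47 of the 53 members. In the 100 bases before the RefSeq start, CGCT was found on the coding strand in 44 of 47 windows (93.6%), against 27.5% of the 27305 genes with a window, and on either strand in 93.6% against 43.8%. The copies lay 8 to 95 bases upstream of the start, with a median of 52.5. The windows below belong to members whose values the results turn on. All are on the plus strand of GRCh38.p14, read 5′ to 3′, with CGCT in capitals. A match is a description of the letters, not evidence of a bound site. The 4 alpha windows come first.
PCDHA7, chr5:140834169-140834268: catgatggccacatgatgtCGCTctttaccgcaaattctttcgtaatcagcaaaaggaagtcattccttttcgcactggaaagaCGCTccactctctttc
PCDHA12, chr5:140875208-140875307: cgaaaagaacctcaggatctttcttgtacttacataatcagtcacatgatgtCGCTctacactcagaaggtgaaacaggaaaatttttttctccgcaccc
PCDHAC1, chr5:140926199-140926298: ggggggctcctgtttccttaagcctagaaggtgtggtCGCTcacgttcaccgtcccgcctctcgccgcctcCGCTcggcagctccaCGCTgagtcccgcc
PCDHAC2, chr5:140966376-140966475: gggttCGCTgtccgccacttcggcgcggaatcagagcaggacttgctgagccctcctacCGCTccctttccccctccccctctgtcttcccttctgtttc

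The beta windows of PCDHB7, PCDHB12 and PCDHB15 show the letters around CGCT that they share. PCDHB8 is printed because its window, on the plus strand of GRCh38.p14, has no CGCT. The window ends in letters that closely resemble those just before CGCT in the PCDHB13 window. Bases past the window were not searched, so a copy there would be missed.
PCDHB7, chr5:141172544-141172643: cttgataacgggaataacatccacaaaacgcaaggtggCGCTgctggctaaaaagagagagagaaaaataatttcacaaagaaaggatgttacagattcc
PCDHB12, chr5:141208619-141208718: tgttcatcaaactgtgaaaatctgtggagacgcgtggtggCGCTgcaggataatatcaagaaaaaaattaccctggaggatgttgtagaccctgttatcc
PCDHB15, chr5:141245295-141245394: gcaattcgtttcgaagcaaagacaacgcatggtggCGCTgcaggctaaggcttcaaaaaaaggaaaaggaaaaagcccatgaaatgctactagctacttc
PCDHB8, chr5:141177690-141177789: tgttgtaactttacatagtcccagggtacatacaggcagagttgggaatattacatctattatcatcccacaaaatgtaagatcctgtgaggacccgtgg

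The gamma windows (GRCh38.p14, plus strand) show members that were higher with both constructs (PCDHGA4, PCDHGA7), the member whose direction differed between them (PCDHGA10), and members that were lower with both (PCDHGA11, PCDHGC3).
PCDHGA4, chr5:141354921-141355020: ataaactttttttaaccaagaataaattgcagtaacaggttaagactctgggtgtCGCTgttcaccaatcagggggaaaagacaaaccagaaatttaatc
PCDHGA7, chr5:141382642-141382741: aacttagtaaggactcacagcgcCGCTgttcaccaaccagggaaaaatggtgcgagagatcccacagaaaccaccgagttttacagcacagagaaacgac
PCDHGA10, chr5:141412887-141412986: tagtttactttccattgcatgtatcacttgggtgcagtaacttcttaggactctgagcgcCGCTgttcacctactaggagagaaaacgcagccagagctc
PCDHGA11, chr5:141420951-141421050: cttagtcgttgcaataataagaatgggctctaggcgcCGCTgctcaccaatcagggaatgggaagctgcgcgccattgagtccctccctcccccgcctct
PCDHGC3, chr5:141475866-141475965: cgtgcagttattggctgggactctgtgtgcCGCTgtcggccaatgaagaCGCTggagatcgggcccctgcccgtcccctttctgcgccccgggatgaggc
The windows of PCDHA9, PCDHB8 and PCDHGB2 held no CGCT. Those of PCDHA9 and PCDHGB2 are among 5 of the 47 windows that start inside the gene as deposited. Such windows do not cover the bases before the deposited start. The others of this kind, of PCDHA4, PCDHA11 and PCDHGA8, do hold CGCT. The PCDHA9 window has CACT where the otherwise similar stretch of PCDHA7 has CGCT.

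Library totals ran from 15194678 to 18748009 counts in SKOV3 and from 18160558 to 24026993 in OVCAR3. RSF1 itself was read first to check the labels. Its level was 42.2 to 47.5 CPM (the count of a gene scaled by the TMM-adjusted total of its library) with control vector, 631 to 775 with RSF1 and 459 to 509 with RSF1delUAB. In OVCAR3 it was 564 and 707 CPM with the scramble control and 787 and 586 with the UAB peptide. Those groups overlapped, so RSF1 does not check the OVCAR3 labels. KRT7, KRT8, KRT18, KRT19 and PAX8 were above 100 CPM in both lines, while CDH1 and MUC16, also markers of ovarian carcinoma, were under 1 CPM in each SKOV3 group. Single levels below are given as mean ± SD over the libraries of a group, n = 3 in SKOV3 and n = 2 in OVCAR3. The lines were deposited in separate tables and are not tested against each other. In bulk samples, fewer cells with a transcript and less of it per cell cannot be told apart.

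Reads of the constant exons do not say which first exon they came from. Stretches of 2869 bases in the alpha cluster and 2177 in the gamma cluster are listed for at least 10 members each, and each member has 2459 to 12653 bases that no other member covers. PCDHA1 was listed at 0 counts in all 13 libraries although the constant exons are part of it, so such reads were not counted for every member. Of its 2726 unshared bases, 7 lie outside a predicted gene on the opposite strand, and the use of strand in the counting is not stated. First exons also resemble each other. In 38 members at least 1 stretch of 100 bases of the longest exon recurs letter for letter in another member, with a median of 2.62% of such stretches over all 53, and 10 members are over 10%. PCDHB8 (25.7%), PCDHB10 (24.7%) and PCDHA7 (18%) are therefore uncertain to that extent. The shares of PCDHGB4 (55.3%) and PCDHGA8 (34.8%) come mostly from a stretch of the genome listed for both genes. Each has 4443 bases shared with members, against 2177 in the other gamma genes, and these are left out of the unshared bases.

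With control vector the 53 members summed to 248, 243 and 237 CPM in SKOV3, and 36 of them had a mean of at least 1 CPM. The sum was 303, 369 and 375 CPM with RSF1 and 394, 395 and 419 CPM with RSF1delUAB. All 6 libraries of the constructs were above the 3 controls, and the RSF1delUAB libraries were above those of RSF1. The 16 beta genes made most of the difference between each construct and control, at 104, 105 and 99.8 CPM with control vector, 176, 197 and 195 with RSF1, and 200.2, 199.8 and 215 with RSF1delUAB. The summed alpha genes overlapped between groups, at 64.8 to 72.6, 60.9 to 71.8 and 62.2 to 66.8 CPM.

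The alpha sum hides opposite movements of its C-type and variable genes. Its 13 variable members summed to 38.0 to 43.1 CPM with control vector, 53.4 to 62.3 with RSF1 and 49.5 to 53.7 with RSF1delUAB. The 5 C-type members of both clusters together were at 51.6 to 54.8, 15.5 to 22.1 and 22.5 to 25.0 CPM. Gamma A genes were at 30.5 to 35.7, 38.6 to 59.3 and 78.5 to 87.8 CPM, and gamma B genes at 11.6 to 15.1, 20.0 to 36.0 and 36.7 to 41.9 CPM. One RSF1 library, replicate 1, was the lowest of its group for both gamma classes (38.6 and 20.0 CPM), and the whole gamma cluster in it, at 66.6 CPM, lay below the controls.

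**Figure D1:**
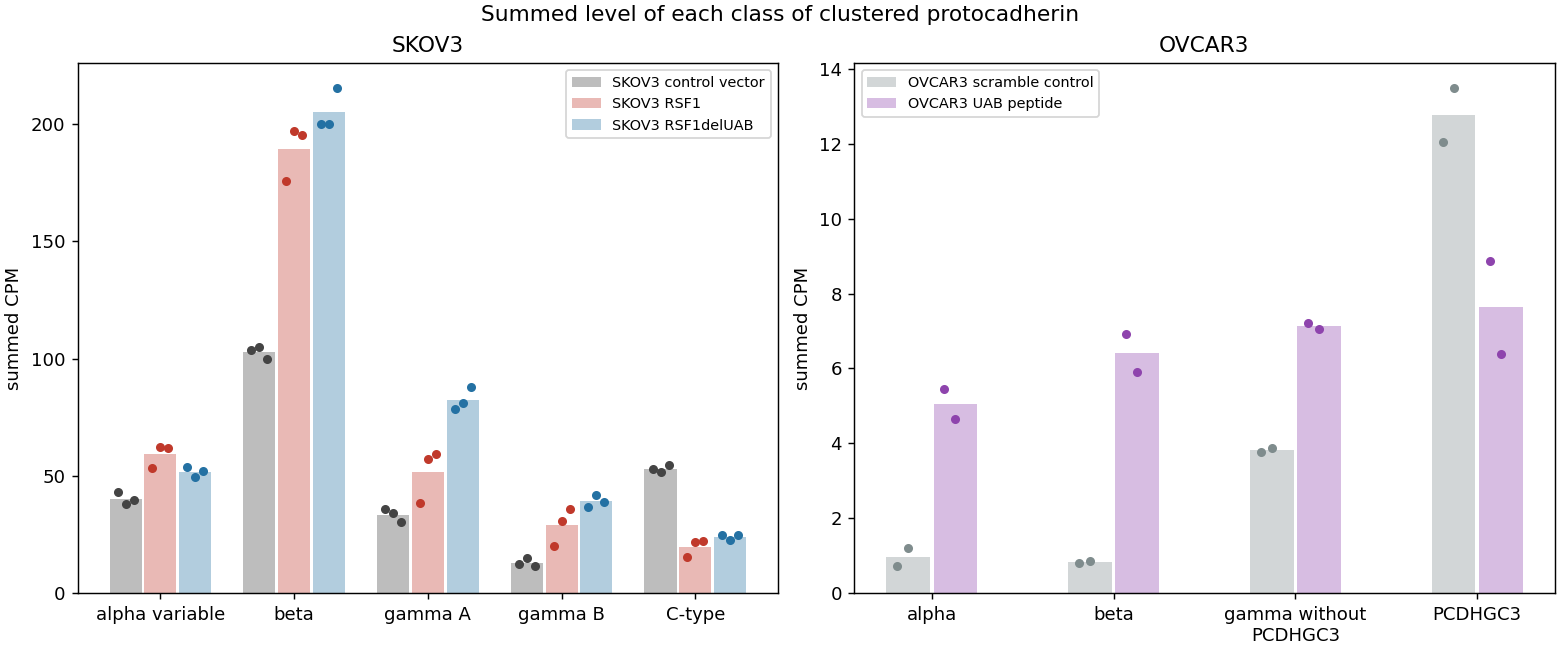
Summed CPM of each class of clustered protocadherin, with bars for the group mean and points for single libraries, in SKOV3 on the left and OVCAR3 on the right. In SKOV3 the beta, gamma A and gamma B sums of all construct libraries lie above the controls and the C-type sums lie below them; in OVCAR3 PCDHGC3 is lower, and the sums of alpha genes, beta genes and gamma genes without PCDHGC3 are higher, in both UAB libraries.

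Levels of different genes were compared per kilobase (kb) of exon that no other member covers. With control vector PCDHGC3 led at 7.30 ± 0.391 CPM per kb, followed by PCDHB8 at 6.80 ± 0.115 and PCDHA3 at 6.35 ± 0.431, and the ranges of 1 SD around neighbouring means overlapped among these 3. By full deposited length, and by exon bases in no other gene, PCDHB8 ranked 1 and PCDHGC3 ranked 2. PCDHAC1 came next at 4.56 ± 0.293 CPM per kb, a place it loses when the full deposited length is used, where it ranked 8. With RSF1 the order began with PCDHB8 at 11.2 ± 0.522, PCDHA7 at 7.89 ± 0.169 and PCDHB5 at 7.43 ± 0.963 CPM per kb, where the ranges of 1 SD overlapped for the last pair. PCDHA7 ranked 6 by full length. With RSF1delUAB it began with PCDHB8 at 10.9 ± 1.06, PCDHB5 at 7.17 ± 0.487 and PCDHGA4 at 7.10 ± 0.339 CPM per kb, with the last pair again overlapping. PCDHGA4 ranked 7 by full length.

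Within the alpha cluster the leading gene changed. PCDHA3 made 35.2% of the summed level per kb of that cluster with control vector, 14.4% with RSF1 and 16.4% with RSF1delUAB, while PCDHA7 made 8.44%, 39.3% and 31.8%. The share of PCDHAC1 was 25.3%, 3.53% and 5.68%. In the gamma cluster PCDHGC3 made 35.3%, 11.2% and 7.85%, and PCDHGA4 3.95%, 18.2% and 18.0%.

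**Figure D2:**
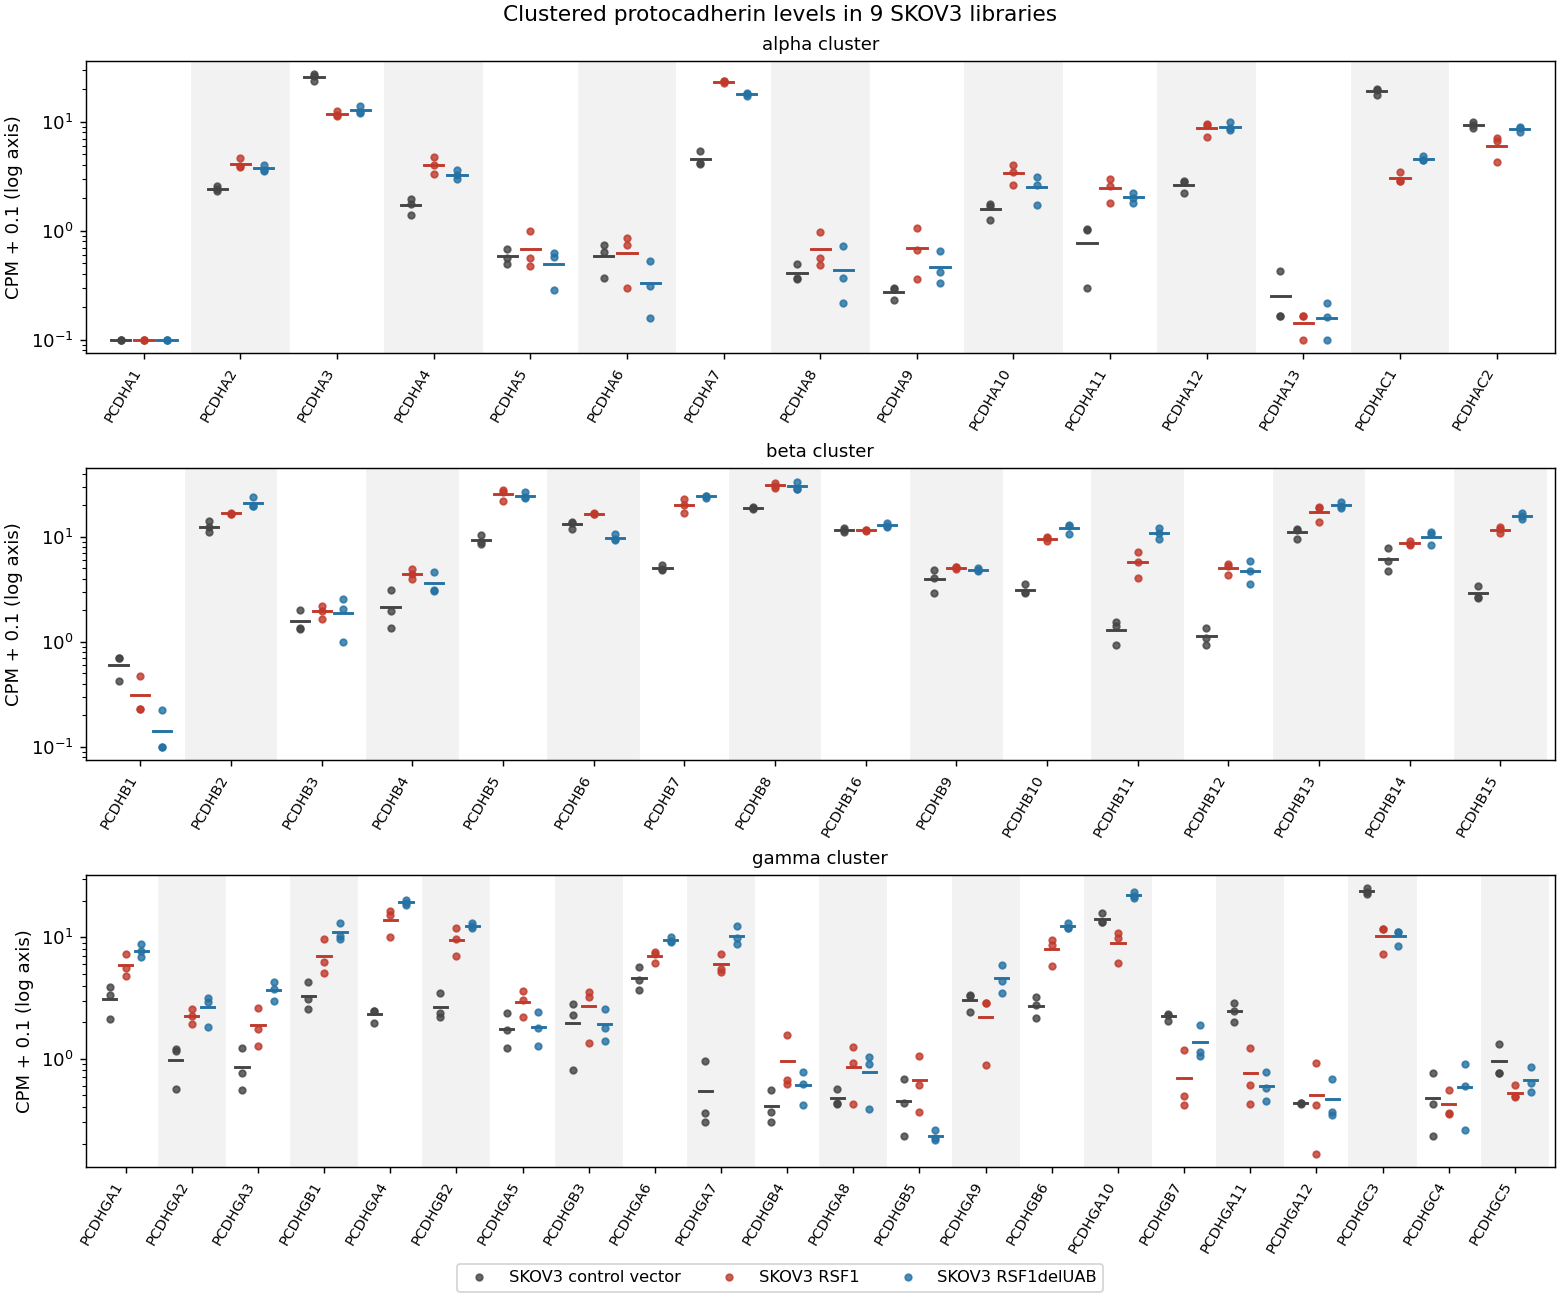
CPM + 0.1 on a log axis for every member in chromosomal order, with points for the 9 SKOV3 libraries and lines for group means; values compare groups within a gene, not genes with each other. PCDHA7, PCDHB7, PCDHB15, PCDHGA4 and PCDHGA7 are separated from control in all 6 construct libraries, PCDHAC1 and PCDHGC3 in the opposite direction.

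The first comparison asked what RSF1 overexpression does to these genes. Of the 53 members, 42 passed the filter on low counts. PCDHA1, PCDHA5, PCDHA6, PCDHA8, PCDHA9, PCDHA13, PCDHB1, PCDHGA12, PCDHGB4, PCDHGB5 and PCDHGC4 did not. With RSF1, 28 of the 42 were higher than with control vector (percent called higher over all genes tested: 34.3%), 7 were lower (32.9% over all genes) and 7 did not pass the threshold of adjusted p 0.05 (edgeR). In either direction 67.3% of all 16735 genes were called, so that a change as such is no mark of the members. Their median log2 fold change was 0.87, beside 0.02 over all genes tested. Among the 37 members that reached the filter in the 3 control libraries alone, 24 were higher and 7 lower. All libraries of the groups were separated in 28 members upward and 8 downward (35% and 34% of all genes, 69% in either direction).

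By cluster, 12 of 15 tested beta genes were higher and none lower, 10 of 18 gamma genes were higher and 4 lower, and 6 of 9 alpha genes were higher and 3 lower. Of the 4 tested C-type genes 3 were lower, and the other, PCDHGC5, stood at -0.99 ± 0.46 (SE) with adjusted p = 0.0641.

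PCDHB8, the member with the highest mean over all 9 SKOV3 libraries though not with control vector, where the means of PCDHA3, PCDHGC3 and PCDHAC1 in CPM were above it, was at 18.5, 18.6 and 19.1 CPM with control vector, 29.3, 32.2 and 30.6 with RSF1, and 28.5, 28.3 and 33.5 with RSF1delUAB. Both constructs were thus above control without overlap and overlapped each other. Its log2 fold change was 0.72 ± 0.09 (SE) with RSF1 (adjusted p = 9.8e-07) and 0.68 ± 0.09 with RSF1delUAB (adjusted p = 1.71e-06). PCDHB5, another single-exon beta gene, was at 8.40, 10.4 and 8.92 CPM, then 21.7, 26.5 and 27.9 CPM, then 26.3, 23.9 and 23.2 CPM in the same order of groups. This was a rise of 2.75-fold and 2.65-fold, again with no overlap with control.

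PCDHB7 was at 4.76, 5.24 and 4.85 CPM with control vector, 16.9, 22.9 and 20.0 with RSF1, and 23.5, 24.4 and 24.5 with RSF1delUAB. Every construct library was more than 3 times the control mean of 4.95 CPM. PCDHB15, the last gene of the beta cluster, was at 2.58, 3.32 and 2.52 CPM, then 12.4, 11.7 and 10.8, then 14.7, 15.7 and 16.8. The 3 groups did not overlap, and the log2 fold changes against control were 2.05 ± 0.15 and 2.48 ± 0.15 (SE). PCDHB2 (10.98, 14.0 and 12.2 CPM, then 16.9, 16.5 and 16.5, then 19.4, 19.6 and 23.8) and PCDHB13 (9.53, 11.4 and 11.8 CPM, then 13.8, 19.3 and 18.8, then 19.7, 18.5 and 21.6) rose less, by 0.42 and 0.67 log2 units with RSF1. Chosen after their values were seen, PCDHB11 and PCDHB12 started from 1.21 ± 0.326 and 1.03 ± 0.213 CPM and rose by 2.21 ± 0.26 and 2.25 ± 0.26 log2 units (SE) with RSF1. PCDHB3, PCDHB16 and PCDHB9 did not pass in this comparison, at 0.33 ± 0.346, -0.02 ± 0.11 and 0.38 ± 0.19 (SE).

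In the alpha cluster PCDHA7 was at 5.23, 4.11 and 4.01 CPM with control vector, 22.5, 23.3 and 23.4 with RSF1, and 18.1, 17.0 and 18.0 with RSF1delUAB. No group overlapped another. The fold over control was 5.18 with RSF1 (adjusted p = 9.89e-13) and 3.98 with RSF1delUAB (adjusted p = 1.8e-11). PCDHA3, another variable gene of the cluster, went the other way, from 27.1, 23.7 and 26.1 CPM to 11.2, 12.4 and 11.5 with RSF1 and 13.9, 11.9 and 12.1 with RSF1delUAB. It fell by 1.13 ± 0.11 and 1.02 ± 0.10 log2 units (SE). PCDHA2, PCDHA4, PCDHA10, PCDHA11 and PCDHA12 were higher with RSF1, by 0.79 to 1.79 log2 units.

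Among gamma genes PCDHGA4 was at 2.38, 2.39 and 1.87 CPM with control vector, 9.85, 14.99 and 16.3 with RSF1, and 19.0, 18.5 and 20.3 with RSF1delUAB. All groups were separated, with RSF1 replicate 1 the lowest construct library, and the log2 fold changes against control were 2.63 ± 0.19 and 3.12 ± 0.19 (SE). The largest rise of any member, noted after its values were seen, was that of PCDHGA7. It was at 0.199, 0.863 and 0.259 CPM with control vector, 5.09, 5.34 and 7.17 with RSF1, and 8.61, 9.70 and 12.2 with RSF1delUAB. This was a fold of 13.2 (adjusted p = 5.54e-09) and 22.8 (adjusted p = 9.23e-11) from a control level below the filter, so this gene passed only through the construct libraries. PCDHGA11 and PCDHGB7 were lower with RSF1, at -1.83 ± 0.40 and -1.82 ± 0.41 (SE) log2 units, from control means of 2.36 ± 0.430 and 2.13 ± 0.165 CPM. The 3 gamma variable genes that did not pass were PCDHGB3, PCDHGA8 and PCDHGA9.

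The C-type genes called lower with RSF1 were PCDHGC3, PCDHAC1 and PCDHAC2. PCDHGC3, the C-type gene known for the broadest expression outside the nervous system, was at 22.6, 23.5 and 25.1 CPM with control vector, 7.17, 11.6 and 11.6 with RSF1, and 11.01, 8.32 and 10.96 with RSF1delUAB. Its groups with a construct overlapped each other and lay below control, at -1.23 ± 0.15 (adjusted p = 3.87e-07) and -1.23 ± 0.15 (SE, adjusted p = 3.06e-07). PCDHAC1, named after its values were seen, was at 19.7, 17.5 and 19.5 CPM, then 3.33, 2.73 and 2.77, then 4.36, 4.74 and 4.37. It fell by 2.68 ± 0.14 and 2.07 ± 0.13 log2 units (SE), the largest fall of any tested member with RSF1. PCDHAC2, the neighbouring C-type gene, fell by 0.64 ± 0.16 with RSF1 (adjusted p = 0.00196) and stood at -0.12 ± 0.16 (SE) with RSF1delUAB (adjusted p = 0.493).

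**Figure D3:**
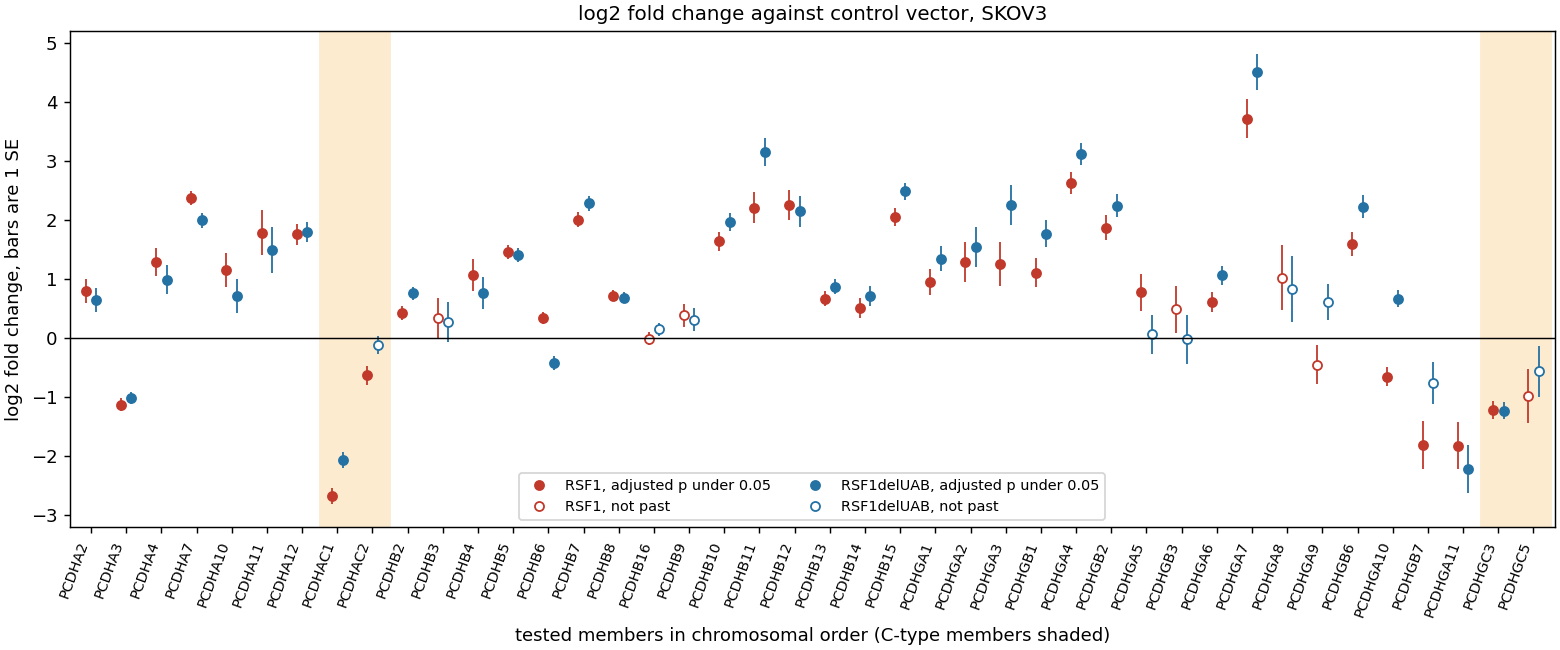
Log2 fold change against control vector (points) with 1 SE (bars) for the 42 tested members in chromosomal order; filled points have adjusted p under 0.05 and shading marks the C-type genes. Both series share the same 3 control libraries. PCDHGA7 is the highest point of each series, and PCDHAC1 is the lowest with RSF1.

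The second comparison asked the same of RSF1 without its UAB region. With RSF1delUAB 27 of 42 members were higher than with control vector (34.5% of all genes tested), 5 were lower (32.1%) and 10 did not pass, and 66.6% of all genes were called in either direction. The median log2 fold change of the members was 0.80, beside 0.02 over all genes. Of the 37 members that reached the filter in the control libraries alone, 23 were higher and 5 lower. Libraries were separated upward in 27 and downward in 6 members (37.3% and 35.6% of all genes, 72.9% in either direction). In the alpha cluster 6 of 9 were higher and 2 lower, in the beta cluster 11 of 15 and 1, and in the gamma cluster 10 of 18 and 2. Of the 4 tested C-type genes 2 were lower and none was higher. PCDHB11 rose by 3.15 ± 0.24, PCDHGA3 by 2.25 ± 0.34 and PCDHGB6 by 2.22 ± 0.19 log2 units (SE), and PCDHGA11 was lowest at -2.23 ± 0.41. This comparison and the first use the same 3 control libraries, so their values stand side by side here and likeness between them is not given as a result.

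The third comparison set RSF1 against RSF1delUAB directly, since the constructs differ by the UAB region. Here 2 of 42 members were higher with RSF1 (18.5% of all genes tested), 15 were lower (20.2%) and 25 did not pass, with 38.6% of all genes called in either direction. The median was -0.21, beside 0.00 over all genes. All 8 gamma genes called were lower with RSF1 than with RSF1delUAB, as were 5 of 6 beta and 2 of 3 alpha genes called. Libraries were separated upward in 2 and downward in 16 members (22.7% and 24.3% of all genes, 46.9% in either direction). Against a fold of 1.5, tested with glmTreat of edgeR, 0 members were called higher and 1 lower. RSF1 itself was also higher with RSF1 than with RSF1delUAB (above), and the part of that difference in these values was not tested.

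PCDHGA10 differed most. It was at 15.6, 13.2 and 13.1 CPM with control vector, 6.06, 10.7 and 9.81 with RSF1, and 21.1, 21.9 and 23.7 with RSF1delUAB. RSF1 libraries lay below control and RSF1delUAB libraries above it, with no overlap. The log2 fold change was -0.66 ± 0.155 with RSF1, 0.67 ± 0.14 with RSF1delUAB and -1.32 ± 0.15 (SE) between the constructs (adjusted p = 4.77e-07). PCDHB6 showed the reverse, at 13.8, 11.9 and 13.4 CPM with control vector, 16.4, 16.6 and 16.2 with RSF1, and 9.41, 10.46 and 9.18 with RSF1delUAB. Its groups did not overlap, and the values were 0.34 ± 0.11, -0.43 ± 0.11 and 0.76 ± 0.11 (SE, adjusted p = 1.32e-05 between constructs). Without control replicate 2 the first of these lost its call (adjusted p = 0.0512).

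Of the other members, PCDHA7 was higher with RSF1 by 0.38 ± 0.10 log2 units (SE, adjusted p = 0.00505). PCDHAC1 was lower with RSF1, at -0.61 ± 0.16 (adjusted p = 0.00532), as were PCDHB11 at -0.94 ± 0.18, PCDHGA7 at -0.79 ± 0.20, PCDHGB6 at -0.63 ± 0.16, PCDHGA4 at -0.49 ± 0.14 and PCDHB15 at -0.43 ± 0.12 (SE). These 6, with PCDHGA10, were the lower calls that held under every alternative but the fold threshold. The remaining 8 of 15, PCDHAC2, PCDHB2, PCDHB7, PCDHB10, PCDHGA3, PCDHGA6, PCDHGA9 and PCDHGB1, lost the call in at least 1 of them. Without RSF1 replicate 1, the library with the low gamma sum, 4 members were higher and 11 lower between constructs, and 31 were higher and 7 lower with RSF1 than with control. Values near 0 between constructs were those of PCDHGC3, at 0.01 ± 0.16 (SE, adjusted p = 0.975), PCDHB8 at 0.03 ± 0.09 (adjusted p = 0.809) and PCDHB5 at 0.05 ± 0.11 (adjusted p = 0.743).

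**Figure D4:**
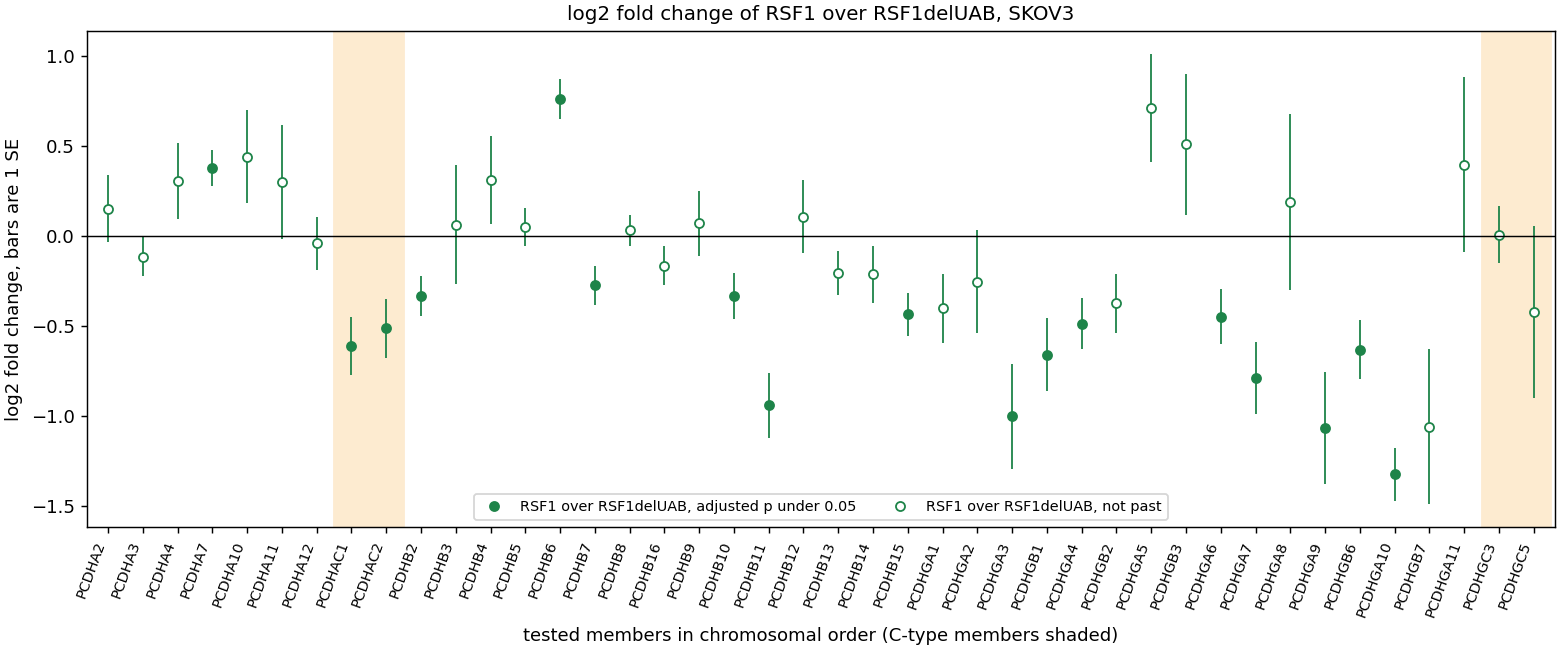
Log2 fold change of RSF1 over RSF1delUAB (points) with 1 SE (bars) for the 42 tested members in chromosomal order; filled points have adjusted p under 0.05. PCDHGA10 is the lowest point and PCDHB6 the highest, and only PCDHA7 and PCDHB6 are filled above 0.

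In OVCAR3 the comparison set the UAB peptide against the scramble control. Clustered protocadherins were far scarcer by count in these libraries. With the scramble control the 53 members summed to 406 and 450 counts, of which PCDHGC3 had 282 and 312, and 20 members had no count in either library. With the UAB peptide PCDHGC3 had 181 and 117 counts, and 4 members had none. All members but PCDHGC3 together were at 5.30 and 5.96 CPM with the scramble control and 19.6 and 17.6 CPM with the UAB peptide.

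Alpha genes had 17 and 28 counts with the scramble control and 111 and 85 with the UAB peptide. Beta genes had 19 and 20 counts, then 141 and 108. Gamma genes without PCDHGC3 were at 3.76 and 3.89 CPM, then 7.21 and 7.04. Within them gamma B genes were at 1.28 and 1.90 CPM, then 4.705 and 4.97, without overlap, while gamma A genes overlapped, at 2.22 and 1.685 CPM, then 2.255 and 1.91. The alpha, beta and gamma sums without PCDHGC3 were each higher in both UAB libraries than in both controls. The gamma sum with PCDHGC3 was not, and overlapped between groups at 15.8 and 17.4 CPM, then 16.1 and 13.4. The share of PCDHGC3 in the gamma level per kb was 77.2% and then 51.1%.

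**Figure D5:**
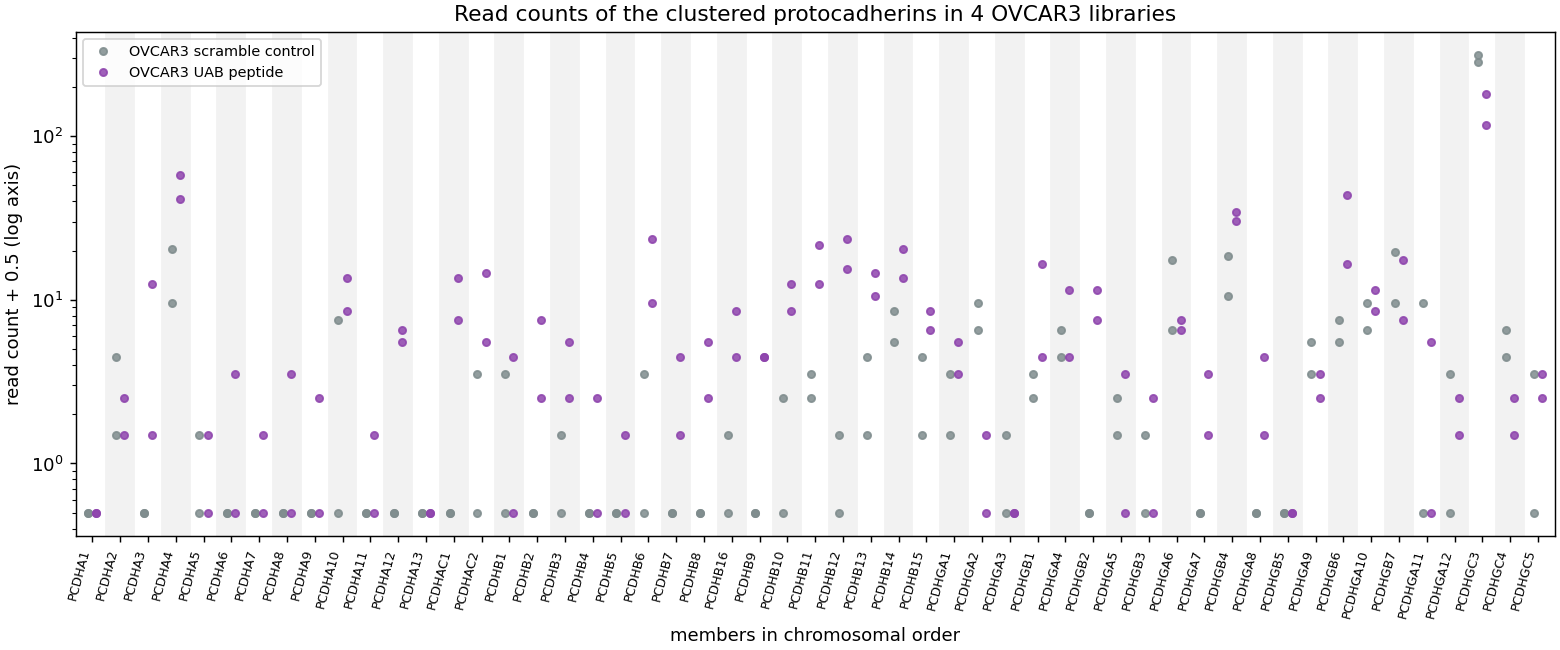
Read count + 0.5 on a log axis for every member in chromosomal order in the 4 OVCAR3 libraries. PCDHGC3 stands above all others in each library and is lower with the UAB peptide, while PCDHA4, PCDHB12 and PCDHGB6 are among those higher in both UAB libraries.

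Of the 53 members, 10 passed the filter in OVCAR3, and PCDHGC3 alone reached it in both control libraries, so the others passed through the group where they were high and their count supports no statement on the clusters. Of the 10, 5 were higher with the UAB peptide (5.45% of 18359 genes tested), 1 was lower (5.46%) and 4 did not pass, and 10.9% of all genes were called. The libraries of the groups were separated upward in 27.4% and downward in 26.7% of all genes, 54.1% in either direction. Separation as such is thus no mark of a member here. PCDHGC3 was at 12.1 and 13.5 CPM with the scramble control and 8.87 and 6.39 with the UAB peptide. The groups did not overlap, and it fell by 0.74 ± 0.21 log2 units (SE, adjusted p = 0.0322). That call was lost with library totals in place of TMM (adjusted p = 0.0517), without scramble replicate 2 (0.0632) and without UAB replicate 2 (0.184).

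PCDHA4 had 9 and 20 counts with the scramble control and 57 and 41 with the UAB peptide, which was 0.385 and 0.864 CPM against 2.79 and 2.24. It rose by 2.00 ± 0.46 log2 units (SE, adjusted p = 0.011), with adjusted p = 0.0529 without scramble replicate 1. PCDHGB6 had 7 and 5 counts, then 16 and 43, and rose by 2.56 ± 0.65 (SE, adjusted p = 0.0209). That call ended with limma-voom (adjusted p = 0.058) and without UAB replicate 2, where the rise was 1.587. Both genes were separated between the groups, and both rest on few reads.

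The 3 other rises were in beta genes below 1 CPM, named after their values were seen. PCDHB12 had 0 and 1 counts with the scramble control and 23 and 15 with the UAB peptide. The ratio of its summed counts was 45.7, with a 95% counting interval of 7.72 to 1850.0, and its adjusted p was 0.00344 (edgeR). PCDHB12, PCDHB6 and PCDHB11 reached the count filter in neither control library, and nor did PCDHGB6 above. All of these genes, PCDHGB6 included, were tested only through their level with the UAB peptide. Their p-values are therefore no independent support. PCDHB6 had 0 and 3 counts, then 23 and 9, a ratio of 12.8 (4.01 to 65.4) with adjusted p = 0.0278 (edgeR). Its call ended with DESeq2 (adjusted p = 0.0507) and without scramble replicate 1, where the rise was 2.596 log2 units. PCDHB11 had 2 and 3 counts, then 21 and 12, and rose by 2.91 ± 0.755 (SE, adjusted p = 0.0227, edgeR). That call ended with DESeq2 (adjusted p = 0.0634). It also ended without scramble replicate 1, scramble replicate 2 or UAB replicate 1, where the rise was 2.649, 3.215 and 2.549. Counting intervals and floors cover counting error only.

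The tested members that did not pass were PCDHB13 at 2.48 ± 0.83, PCDHB14 at 1.58 ± 0.635, PCDHGB4 at 1.45 ± 0.49 and PCDHGB7 at 0.03 ± 0.63 (SE). Of members below the filter, PCDHAC1 had 0 counts in both control libraries and 13 and 7 with the UAB peptide, and PCDHGB2 had 0 and then 11 and 7. Against a floor of 3 counts over the control group these were at least 8.01-fold and at least 7.21-fold higher. PCDHA1, PCDHA13 and PCDHGB5 were listed at 0 in all 4 libraries. PCDHGA2 went the other way, with 6 and 9 counts and then 0 and 1.

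Genes around the clusters were counted in the same comparisons. Of 54 other tested genes within 2 Mb, 13 were higher and 19 lower with RSF1 (median log2 fold change -0.09), 13 and 20 with RSF1delUAB (median 0.00), 7 and 14 between constructs, and 0 and 5 in OVCAR3. These are to be read against 34.3% higher and 32.9% lower, 34.5% and 32.1%, 18.5% and 20.2%, and 5.45% and 5.46% of all genes tested in the same order. By share, neighbours were called higher in 24.1% and lower in 35.2% with RSF1, in 24.1% and 37% with RSF1delUAB, and in 13% and 25.9% between constructs, where lower calls outnumbered higher ones among neighbours as among members. Of 615 other tested genes on the long arm of chromosome 5, 191 were higher and 201 lower with RSF1 (median -0.01) and 178 and 214 with RSF1delUAB (median -0.04). Correcting members for the median of the arm left every count of calls as it was. With arm medians this close to 0 (-0.03 in OVCAR3), that outcome was nearly fixed beforehand. A part of the arm in these values was thus not tested by it.

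The other protocadherins and the FAT and CELSR cadherins lie outside the clusters and share none of their constant exons. Of 19 tested in SKOV3, 4 were higher and 9 lower with RSF1 (median -0.38) and 6 and 5 with RSF1delUAB (median 0.14). With RSF1 against RSF1delUAB 0 and 12 were called (median -0.81). By share these were 21.1% and 47.4%, 31.6% and 26.3%, and 0% and 63.2%. Over all genes tested the shares were 34.3% and 32.9%, 34.5% and 32.1%, and 18.5% and 20.2%. CELSR1, a planar cell polarity cadherin, rose by 1.09 ± 0.10 and PCDH11X by 0.79 ± 0.10 log2 units (SE) with RSF1, while PCDH7 stood at -2.98 ± 0.15 and FAT4 at -2.28 ± 0.155. With RSF1delUAB PCDH9 was at 3.07 ± 0.11, PCDH11X at 1.68 ± 0.10, FAT4 at -2.73 ± 0.16 and PCDH7 at -0.97 ± 0.12. Between the constructs PCDH9 was at -2.44 ± 0.10 and PCDH7 at -2.01 ± 0.15. In OVCAR3 2 of 22 were higher, FAT3 at 1.47 ± 0.39 and CELSR1 at 0.55 ± 0.155. Another 2 were lower, PCDH1 at -1.19 ± 0.14 and PCDH10 at -1.26 ± 0.33. That is 9.09% in each direction, beside 5.45% higher and 5.46% lower over all genes tested.

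Genes that act on the choice and silencing of these promoters were more often lower than higher with either construct. Of 34 tested, 7 were higher and 20 lower with RSF1 (median -0.31) and 7 and 17 with RSF1delUAB (median -0.16), against 34.3% higher and 32.9% lower, and 34.5% and 32.1%, over all genes. SMC1A, a core cohesin subunit, fell by 1.26 ± 0.08 and 1.23 ± 0.08, and PDS5A, a cohesin regulator, by 0.85 ± 0.07 and 0.99 ± 0.07 log2 units (SE) with RSF1 and RSF1delUAB. The DNA methyltransferase DNMT3B rose by 1.11 ± 0.08 and 0.79 ± 0.08, TRIM28, a corepressor that recruits SETDB1, by 0.59 ± 0.06 with RSF1, and DNMT3A by 0.85 ± 0.09 with RSF1delUAB. CTCF, the zinc finger protein that binds the promoters, was at 0.07 ± 0.07 and 0.13 ± 0.07 (SE) and is named outside the rule. Between constructs 4 were higher, led by TRIM28 at 0.37 ± 0.06 and WIZ at 0.38 ± 0.07, and 7 lower, among them CBX5 at -0.60 ± 0.09. By share this was 11.8% and 20.6%, beside 18.5% and 20.2% over all genes tested. In OVCAR3 3 of 34 were higher, among them the demethylase TET1 at 0.81 ± 0.22 and DNMT3A at 0.51 ± 0.14. DNMT3B was lower at -0.84 ± 0.14. The shares were 8.82% higher and 2.94% lower, beside 5.45% and 5.46% over all genes tested.

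Cytoplasmic partners and proteases of the protocadherins include the WAVE complex, focal adhesion kinases and the secretases that cut the proteins. Of 27 tested, 7 were higher and 14 lower with RSF1 (median -0.25) and 9 and 13 with RSF1delUAB (median -0.14). Between constructs 3 and 6 were called, and 0 and 1 in OVCAR3. By share these were 25.9% and 51.9%, 33.3% and 48.1%, 11.1% and 22.2%, and 0% and 3.7%. Over all genes tested the shares were 34.3% and 32.9%, 34.5% and 32.1%, 18.5% and 20.2%, and 5.45% and 5.46%. ADAM10, the protease that sheds them, rose by 0.87 ± 0.06 and APH1B, a gamma-secretase subunit, by 0.75 ± 0.11 with RSF1, and WASF3 and PTK2 were at -2.13 ± 0.11 and -0.86 ± 0.07. With RSF1delUAB CYFIP2 was at 0.69 ± 0.09, WASF3 at -1.19 ± 0.10 and RAC1 at -0.66 ± 0.07. Between constructs ADAM10 was at 0.47 ± 0.06, BRK1 at 0.31 ± 0.08, ABI2 at -0.61 ± 0.07 and WASF3 at -0.95 ± 0.115, and in OVCAR3 the member called was AXIN1, at -0.54 ± 0.15 (SE).

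Markers of other cell types moved in these libraries too, and their part in the results above was not tested. Of 10 fibroblast markers, 8 of 8 tested were higher with RSF1 (34.3% of all genes tested) and 7 of 8 with RSF1delUAB (34.5%). Their summed level was 20.5 to 22.4 CPM with control vector, 257 to 265 with RSF1 and 394 to 398 with RSF1delUAB. PDGFRB, at 0 with control vector, and COL3A1 stayed under 1 CPM. Summed neuronal markers were at 35.2 to 41.6, 25.4 to 26.8 and 46.8 to 50.5 CPM in these groups, and at 137 to 145 and then 104.5 to 116 CPM in OVCAR3. MAP2 carried most of that sum in each control group, and STMN2, ELAVL4 and NEFL were under 1 CPM in all 5 groups, with SNAP25, DCX and ELAVL4 at 0 with control vector. Immune markers summed to at most 2.96 CPM in SKOV3 and 14.3 in OVCAR3, with CD3E and MS4A1 at 0 in every SKOV3 group, and endothelial markers to at most 10.3 and 28.8 CPM, with CDH5 and EMCN at 0 with control vector.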

How the data were processed

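The deposited tables, 1 for each cell line, hold raw counts of reads for every gene. The submitters' processing notes name FastQC, STAR 2.7.9a and Subread, with GRCh38, hg38 and GRCm38; no source used here gives the annotation release, the strand setting or the treatment of reads with several matches. A record split over 3 lines was rejoined in each table. All columns of per-sample values were used. The column taken as OVCAR3 scramble replicate 2 carries an unexplained letter.

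The lines were fitted separately in edgeR 4.0.16 (R 4.3.3), with TMM scaling, filterByExpr at a minimum count of 10, a quasi-likelihood fit over all groups of a line, and Benjamini-Hochberg adjustment over all genes tested in each of 4 comparisons at a threshold of 0.05. The biological coefficient of variation was 0.0734 in SKOV3 (16735 genes) and 0.124 in OVCAR3 (18359 genes, 2 residual degrees of freedom). The prior count behind fold changes was 0.125, and each SE was obtained from the fold change and its F statistic. The fits were also run on simulated counts with few changed genes, none with a low control level, and the same spread for every gene. Most SKOV3 genes were called against control and most OVCAR3 members had few counts, so that run does not bear on these calls.

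Members, the 8 lists (3 of related genes and 5 of markers) and the alternatives were chosen with earlier results of these data known. Per-library values are given for up to 12 called members per line, highest mean first, among those with a mean of at least 1 CPM in a group; others shown that way were chosen after their values were seen. From each list of related genes, up to 2 higher and 2 lower genes with the smallest adjusted p are named. Some genes that this rule picks are not reported here. Promoter windows are from RefSeq (GRCh38.p14), and recurring 100-base stretches come from GENCODE 29 exons. Tried as alternatives were RLE scaling, library totals, DESeq2 1.42.0, voom in limma 3.58.1, 2 count filters, a fold threshold, the replicate number as a block, an offset for the chromosome arm, a fit of the 2 groups compared, other exon lengths, and leaving out each replicate.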

Additional observations from a re-analysis of the deposited data

How the results depend on the processing

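Direction and side of the threshold held in 1982 of 2137 alternatives for single members, 24 passed newly, 101 no longer passed and 30 changed sign, all in members that had not passed. Counts of calls against control in SKOV3 stayed within 1.5 times in every alternative. The fold threshold of 1.5 left 19 higher and 5 lower with RSF1, and 19 and 4 with RSF1delUAB. Between constructs the fold threshold of 1.5 left 0 higher and 1 lower member. In OVCAR3 it left 1 and 0, library totals left 0 lower, no count filter gave 8 higher, at least 1 CPM left 1, and DESeq2 gave 3. Leaving out each replicate gave 27 to 31 higher and 7 lower for RSF1 against control, 25 to 28 and 5 to 6 for RSF1delUAB, 2 to 4 and 10 to 14 between constructs, and 2 to 4 and 0 to 1 in OVCAR3. A lone library left in an OVCAR3 group is assumed to vary like the other group. The cause of these shifts was not tested.

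Deviations from group means correlated at -0.04 to 0.07 between same-numbered SKOV3 libraries and at -0.08 to 0.04 between the others. Values this small do not settle whether the numbers pair libraries. With the replicate block 28 and 7, 27 and 5, and 3 and 15 members were called in the SKOV3 comparisons, and 5 and 1 in OVCAR3. There the correlation was -0.15, and crossed pairing, added after seeing the data, gave 7 and 1.

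Signs turned in members that had not passed, on the log2 scale, as follows. For RSF1 against control, PCDHB16 was at 0.042 with library totals and at -0.040 to 0.0065 when replicates were left out. For RSF1delUAB against control, leaving out replicates gave -0.043 to 0.61 for PCDHB3, -0.19 to 0.34 for PCDHGA5 and -0.42 to 0.34 for PCDHGB3, which was at 0.022 with library totals and 0.13 with limma-voom. Between constructs, leaving out replicates gave -0.11 to 0.072 for PCDHA12, -0.27 to 0.38 for PCDHB3, -0.021 to 0.15 for PCDHB5, -0.011 to 0.12 for PCDHB8, -0.065 to 0.298 for PCDHB12, -0.21 to 0.54 for PCDHGA8, -0.25 to 0.71 for PCDHGA11 and -0.12 to 0.20 for PCDHGC3. PCDHGC3 was also at -0.0031 with the replicate block and -0.013 with limma-voom. In OVCAR3 leaving out replicates gave -0.64 to 0.66 for PCDHGB7.

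Low counts limit what can be read of the members in OVCAR3, where 33 of 53 had 3 or fewer counts over both control libraries together.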
